A study of Mus musculus with 416 samples.

Results

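The major histocompatibility complex (MHC) class I genes were followed over the striatum libraries of a Diversity Outbred mouse series. The 9 genes were taken by symbol: the classical heavy chain genes H2-K1 and H2-D1, the Q-region genes H2-Q4, H2-Q6 and H2-Q7, the T-region genes H2-T22 and H2-T23, the M-region gene H2-M3, and the light chain gene B2m. All 9 were found among the 46517 gene IDs of the deposited table, and all 9 passed the filter on low counts that left 22968 genes. The striatum, the input nucleus of the basal ganglia, was profiled by stranded RNA sequencing in 416 libraries; the drug-naïve mice belonged to the J:DO stock, an outbred population descended from several inbred founder strains. Libraries labelled female numbered 76, 60 and 72 in generations 21, 22 and 23, and libraries labelled male 74, 59 and 75. The age of the animals is not given in the labels. The titles give each library a number of its own, and no label says that the libraries came from separate animals, so p-values measure the spread between these libraries.

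A class I molecule is a heavy chain paired with beta-2 microglobulin, the product of B2m, and it displays peptides from inside the cell to CD8 T cells and to receptors of natural killer cells. The peptides are cut by the proteasome, carried into the endoplasmic reticulum by the TAP transporter and loaded with the help of tapasin and other chaperones. In the brain, class I molecules are known from microglia and vessels and also from neurons, where they take part in the pruning and plasticity of synapses. The heavy chain genes are among the most polymorphic of the mouse genome, and inbred strains carry different H2 haplotypes. Founder genotypes of the animals were not analysed here.

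The libraries held between 20331737 and 77458200 counts (median 43516282). Spiny projection neuron markers were present, with Ppp1r1b at a median of 1030 CPM and Drd1 at 310 CPM, although Drd1 was at 1.53 CPM in the lowest library. In 29 libraries Xist went against the labelled sex (a limit of 100 CPM), and 29 libraries had a low total or a low correlation with the rest. Both sets were kept in the main analysis and left out in turn as alternatives.

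On chromosome 17 the tested members follow each other in the order H2-K1, H2-D1, H2-Q4, H2-Q6, H2-Q7, H2-T23, H2-T22 and H2-M3. H2-K1 and H2-D1 lie 80 tested genes apart, H2-Q6 and H2-Q7 are direct neighbours among tested genes, and so are H2-T23 and H2-T22. B2m lies on chromosome 2. The heavy chain genes arose by duplication, and parts of their transcripts are identical. Of all windows of 100 bases in the GENCODE M21 transcripts of each gene, another gene held the same window for 12% in H2-Q7, 10.8% in H2-Q6 and 8.86% in H2-T22. H2-T10 held 6.92% of the windows of H2-T22, and H2-Q7 held 8.36% of those of H2-Q6. The share was 3.59% for H2-D1, 3.15% for H2-T23, 2.16% for H2-Q4 and 0.957% for H2-K1, and it was 0 for H2-M3 and B2m. How such reads were assigned is not given in the sources used here, so the values of H2-Q6, H2-Q7 and H2-T22 are uncertain to that extent. The windows come from the reference strain. Their share in the founder haplotypes was not tested. Whether reads were aligned to the founder genomes is not given either. Any loss of reads from haplotypes unlike the reference was therefore not tested, for H2-K1, H2-D1 and H2-Q4 as well.

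The promoters of the 6 members whose levels the results below turn on are shown from RefSeq (build GRCm38.p6), each from 250 bases before to 50 bases after the annotated start. Textbook class I promoters carry a kappa B site, an interferon-stimulated response element and, closer to the gene, an X box and an inverted CCAAT box that bind the complex through which NLRC5 acts. Capitals mark matches on either strand to the kappa B consensus, to the short interferon core TTTCNNTT, to its longer form TTTCNNTTTC, which contains the short one, to the X2 box TGATGAC and to the inverted CCAAT box ATTGG. The windows are chr17:34000298-34000597 on the minus strand for H2-K1, chr17:35262844-35263143 on the plus strand for H2-D1 and chr17:35379367-35379666 on the plus strand for H2-Q4. Those of the T-region genes are chr17:36042693-36042992 for H2-T22 and chr17:36032652-36032951 for H2-T23, both on the minus strand, and that of B2m is chr2:122147437-122147736 on the plus strand. RefSeq lists 2 starts for H2-K1, and the first one listed is shown.
H2-K1: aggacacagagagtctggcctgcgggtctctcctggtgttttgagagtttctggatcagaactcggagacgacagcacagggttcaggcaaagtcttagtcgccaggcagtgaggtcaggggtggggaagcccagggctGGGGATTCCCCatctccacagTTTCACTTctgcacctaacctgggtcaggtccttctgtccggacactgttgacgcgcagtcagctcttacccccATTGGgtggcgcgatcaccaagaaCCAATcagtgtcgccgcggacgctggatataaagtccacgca
H2-D1: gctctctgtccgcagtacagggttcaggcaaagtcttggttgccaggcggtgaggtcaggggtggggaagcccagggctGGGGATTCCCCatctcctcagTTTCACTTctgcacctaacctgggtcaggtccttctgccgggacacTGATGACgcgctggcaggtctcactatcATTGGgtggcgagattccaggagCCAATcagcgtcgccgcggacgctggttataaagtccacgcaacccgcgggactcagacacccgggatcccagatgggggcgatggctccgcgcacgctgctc
H2-Q4: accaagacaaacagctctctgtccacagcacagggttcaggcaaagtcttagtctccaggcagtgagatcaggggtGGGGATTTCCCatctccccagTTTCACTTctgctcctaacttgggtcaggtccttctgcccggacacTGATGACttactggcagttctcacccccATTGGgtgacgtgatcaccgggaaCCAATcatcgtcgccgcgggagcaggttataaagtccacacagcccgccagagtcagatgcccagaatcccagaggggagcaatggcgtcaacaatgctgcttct
H2-T22: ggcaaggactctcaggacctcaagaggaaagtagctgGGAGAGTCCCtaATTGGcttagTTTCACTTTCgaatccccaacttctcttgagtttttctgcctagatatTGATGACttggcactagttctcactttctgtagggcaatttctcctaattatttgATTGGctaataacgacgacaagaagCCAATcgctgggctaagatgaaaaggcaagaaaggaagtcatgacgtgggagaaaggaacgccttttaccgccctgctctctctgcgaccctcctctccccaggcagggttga
H2-T23: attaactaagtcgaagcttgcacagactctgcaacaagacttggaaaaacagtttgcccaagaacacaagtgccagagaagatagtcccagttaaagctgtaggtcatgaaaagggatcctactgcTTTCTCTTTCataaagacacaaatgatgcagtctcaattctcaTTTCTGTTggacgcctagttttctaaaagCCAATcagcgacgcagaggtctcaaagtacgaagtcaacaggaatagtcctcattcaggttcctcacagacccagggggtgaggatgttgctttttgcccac
B2m: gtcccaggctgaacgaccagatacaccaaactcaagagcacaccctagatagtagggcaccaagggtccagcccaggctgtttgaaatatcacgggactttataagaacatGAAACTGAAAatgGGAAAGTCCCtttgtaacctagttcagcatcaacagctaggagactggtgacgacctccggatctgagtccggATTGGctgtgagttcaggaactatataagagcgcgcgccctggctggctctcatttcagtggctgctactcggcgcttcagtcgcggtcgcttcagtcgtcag
In H2-D1 and H2-Q4 the 4 kinds of site stand in the same order, from kappa B to CCAAT. In H2-D1 the kappa B match began at position -171, the short interferon core at -150, the X2 box at -104 and the first inverted CCAAT box at -76, counted from the start site. In H2-K1 the kappa B match began at -111 and the interferon core at -90, and no TGATGAC was found in this window. B2m held the long interferon form at -139 and a kappa B match at -126, and H2-T23 held the long interferon form at -124. Of the 9 members, 9 held the short interferon core (23.9% of 32851 promoters in the table did), 3 held the long form (3.44% of all) and 8 held the kappa B consensus (8.46% of all). The X2 box was found in 6 members (3.23% of all) and the inverted CCAAT box in 9 (37.4% of all). The motifs were chosen with these promoters in view, and a match is a description of letters, not of a bound site.

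B2m was the most abundant member per kb of annotated exon, and H2-Q7 the least. Levels are given as CPM, counts scaled to library size with TMM factors, and per kb of exon where genes are compared. The exon length of a gene merges the exons of all its annotated transcripts. B2m ran from 10.04 to 45.88 CPM with a median of 18.9, which is 22 CPM per kb. H2-Q4, a Q-region class I gene, had a median of 5.19 CPM per kb, and B2m was higher than it in all 416 libraries. H2-T23, which encodes the Qa-1 molecule that presents leader peptides of other class I chains to the natural killer receptor CD94/NKG2A, followed at 3.96 CPM per kb.

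The classical genes H2-D1 and H2-K1, whose products present peptides to CD8 T cells, had medians of 3.06 and 1.74 CPM per kb. H2-T22, whose product is a ligand of some gamma delta T cell receptors, lay between them at 2.14 CPM per kb. H2-K1 and H2-Q6 could not be ordered, since H2-K1 was higher in 49.8% of the libraries and the medians were 1.74 and 1.71 CPM per kb. H2-M3, which presents N-formylated peptides, had a median of 0.448 CPM per kb, and H2-Q7, which encodes a Qa-2 antigen, 0.303 CPM per kb. The middle 90% of libraries overlapped between every pair of neighbours in this order except B2m with H2-Q4 and H2-Q6 with H2-M3. H2-M3 rested on a median of 28 counts a library and H2-Q7 on 56, against 821.5 for B2m, so the values of these low genes carry more counting error. Which of them is lowest depends on the length. In CPM without the length H2-M3 was lowest, with a median of 0.644 CPM against 1.29 CPM for H2-Q7. The merged exons span 1.44 kb in H2-M3 and 4.26 kb in H2-Q7.

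**Figure D1:**
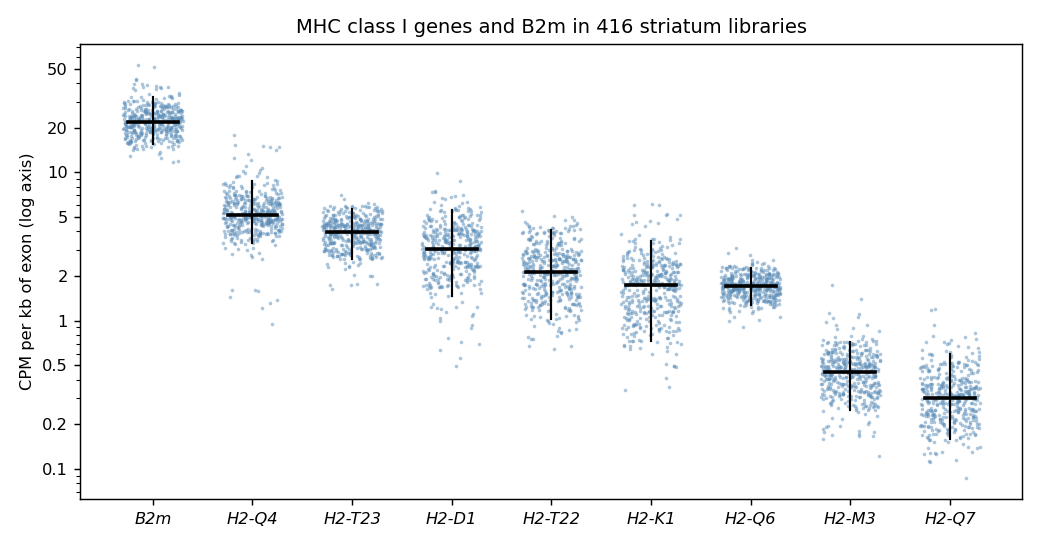
Level of each gene in each of the 416 libraries, in CPM per kb of exon on a log axis; each point is a library, the thick line is the median and the thin line spans the 5th to the 95th percentile. B2m stands above the others with a median of 22 CPM per kb, and H2-Q6 has the narrowest spread.

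The classical genes varied far more between libraries than B2m or H2-Q6. H2-K1 ran from 1.0 to 17.9 CPM (median 5.12), and its 95th percentile was 4.77-fold above its 5th. H2-D1 ran from 1.28 to 25.7 CPM (median 7.89), with a 3.83-fold span between the same percentiles. H2-T22 ran from 2.21 to 18.6 CPM (median 7.31) with a 3.98-fold span. By contrast H2-Q6 ran from 1.9 to 6.42 CPM (median 3.57), a 1.78-fold span.

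On the log2 scale the SD between libraries was 0.698 for H2-K1, 0.633 for H2-D1, 0.602 for H2-T22 and 0.57 for H2-Q7, against a median of 0.301 over all genes tested. Among genes whose mean lay within 0.5 log2 units, H2-K1 had a larger SD than 93.8%, H2-D1 than 94%, H2-Q4 than 94.5% and H2-T22 than 92.5%. For B2m (SD 0.332) this share was 87.7%, for H2-T23 (0.354) 83.5%, for H2-Q7 74.1%, for H2-M3 (0.485) 40.8% and for H2-Q6 (0.259) 27.4%. H2-Q6 and H2-Q7, neighbours that share transcript windows, stood far apart in this share. Sex and generation together took between 0.208% (H2-Q6) and 7.39% (H2-Q4) of the variance, against a median of 3.66% over all genes. In these bulk samples fewer cells of a type and less RNA per cell cannot be told apart, nor can either be told from reads of a haplotype that went uncounted.

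H2-Q4 was the only member whose libraries fell into separate clusters, defined as density peaks with a valley under 0.5 of the lower peak and at least 6 libraries on each side. Such clusters were found for 2319 of the 22968 genes tested. In 8 libraries H2-Q4 lay between 2.47 and 4.2 CPM, and in all others between 6.73 and 46.2 CPM (median 13.6), so no library lay between 4.2 and 6.73 CPM. The 8 libraries were spread over both labelled sexes (3 female, 5 male), with 0 in generation 21, 4 in generation 22 and 4 in generation 23. One of the 8 was among the libraries whose Xist went against the label, and 0 were among those of low total or low correlation.

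The same 8 libraries were also at the bottom of the T-region genes. Ranked from the lowest of 416, they took ranks 1 to 12 for H2-T22, at 2.21 to 2.99 CPM. For H2-T23 7 of the 8 were among the 12 lowest, at 4.72 to 5.91 CPM, and the remaining library, labelled female of generation 22, had 12.0 CPM, above the median of 11.4. For H2-Q7 1 of the 8 was among the 12 lowest. None of the 8 was among the 12 lowest for H2-K1, H2-D1, H2-Q6, H2-M3 or B2m. These libraries were picked by their H2-Q4 level, and their values are a description with no test.

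None of the members had a bimodality coefficient above 0.556, the value of a flat distribution, which 5.06% of all genes exceeded. The highest was 0.392, for H2-T22. The mixture of normal curves with the lowest Bayesian information criterion had 2 components for H2-D1 and H2-Q4 and 1 for the other members, against 2 or more for 54.1% of all genes. H2-D1 had the strongest skew toward low values (-0.68), H2-Q4 -0.52 and H2-T23 -0.5, while B2m had a tail of high values (0.35).

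**Figure D2:**
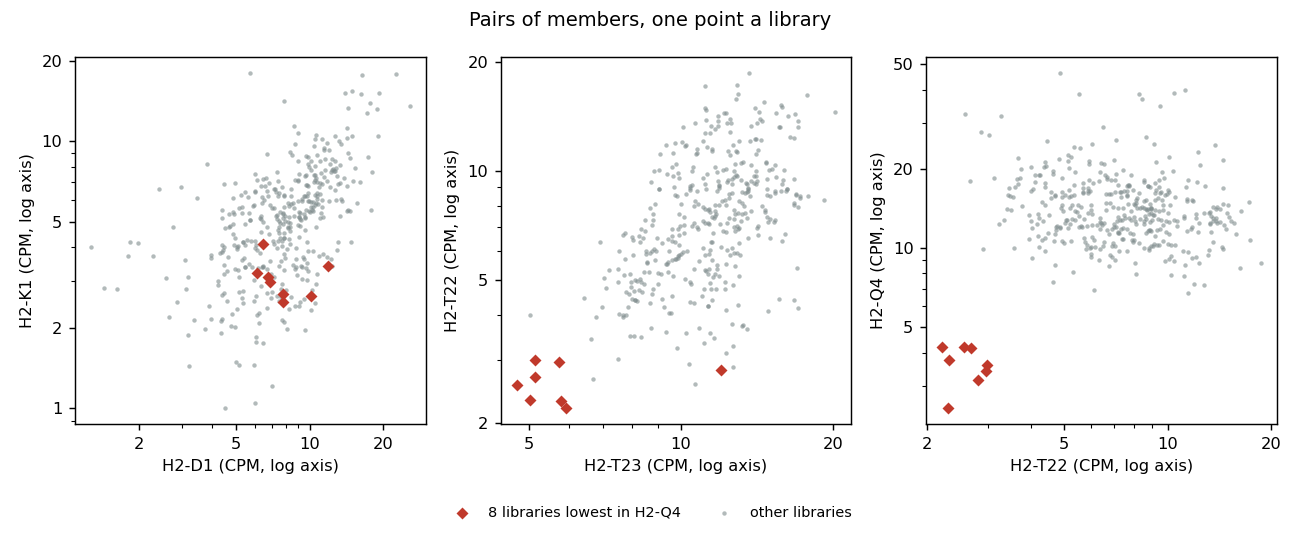
Level of H2-K1 against H2-D1, of H2-T22 against H2-T23 and of H2-Q4 against H2-T22, in CPM on log axes; each point is a library and diamonds are the 8 libraries between 2.47 and 4.2 CPM of H2-Q4. The diamonds lie at the lower edge of H2-T22, and 7 of the 8 at the lower edge of H2-T23. All 8 lie inside the cloud for H2-D1, and inside the cloud but below the median for H2-K1.

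The members did not vary as 1 block: the highest correlations lay within a classical group with B2m and within a T-region pair. Weaker correlations crossed these groups. Over the 36 pairs, 17 were correlated at a Benjamini-Hochberg adjusted permutation p under 0.05 (Spearman), 15 positively and 2 negatively. The other 19 had rho between -0.07 and 0.11. Among them H2-Q4 and H2-Q7 had rho 0.1 over all libraries, but 0.31, 0.19 and 0.23 within generations 21, 22 and 23 and 0.24 on residuals after the group means. For pairs with H2-Q4 its 8 lowest libraries were left out, since the libraries fell into separate clusters.

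H2-K1 and H2-D1 varied together over the 416 libraries (rho 0.55, Pearson r 0.52). Both permutation p-values were 1e-05, the smallest that 100000 permutations can give (adjusted 4.5e-05 for rho and 3.6e-05 for r). Without the 2 libraries farthest from the median of H2-K1 r was 0.52, and rho was 0.6, 0.51 and 0.54 within generations 21, 22 and 23.

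B2m followed both classical genes, with rho 0.44 and r 0.49 for H2-K1 and rho 0.42 and r 0.43 for H2-D1 (permutation p 1e-05 for each, adjusted 4.5e-05 for rho and 3.6e-05 for r). Within generations 21, 22 and 23 rho was 0.42, 0.4 and 0.42 for H2-K1 and 0.42, 0.38 and 0.43 for H2-D1. Leaving out the 2 farthest libraries gave r of 0.49 and 0.43.

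H2-Q7 was the Q-region gene closest to this group: its rho was 0.33 with H2-K1, 0.25 with H2-D1 and 0.21 with B2m. The r values were 0.37, 0.28 and 0.3, and adjusted p for rho was 4.5e-05, 4.5e-05 and 0.000108. Without the 2 farthest libraries r was 0.36, 0.28 and 0.26. Within generations 21, 22 and 23 rho with H2-K1 was 0.23, 0.27 and 0.39, and with B2m 0.14, 0.15 and 0.35.

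The T-region neighbours H2-T22 and H2-T23 formed the other strong pair (rho 0.51, r 0.54, permutation p 1e-05 each, adjusted 4.5e-05 for rho and 3.6e-05 for r). Within generation 21 the Spearman correlation was 0.48, and that generation holds none of the 8 libraries lowest in H2-Q4. It was 0.56 and 0.51 within generations 22 and 23. Without the 2 farthest libraries r was 0.53. H2-T23 showed no correlation past the threshold with H2-K1 (rho 0.08, r 0.1, adjusted p 0.154 and 0.0598) or B2m (rho 0.1, r 0.14, adjusted p 0.0746 and 0.0102, so that r passed and rho did not). H2-T22 was weakly correlated with H2-K1 (rho 0.21, r 0.21, adjusted p 8e-05 and 3.6e-05), with rho 0.07, 0.26 and 0.24 within generations 21, 22 and 23. It was also weakly correlated with B2m (rho 0.15, r 0.16, adjusted p 0.00687 and 0.00233).

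H2-Q4 and H2-Q6 had no correlation with the classical genes past the threshold. Outside its 8 lowest libraries, H2-Q4 had rho -0.03 with H2-K1 and 0.1 with H2-D1, neither past the threshold (adjusted p 0.608 and 0.0777). Within generations 21, 22 and 23 H2-Q4 had rho 0.01, 0.12 and 0.12 with H2-K1, and 0.17, 0.03 and 0.2 with H2-D1. On residuals after the group means it had 0.07 and 0.13. It was negatively correlated with H2-T22 (rho -0.19, r -0.2, adjusted p 0.00072 and 0.000229; rho -0.15, -0.24 and -0.22 within generations 21, 22 and 23), although the 8 libraries left out were low in both. H2-Q6 had rho 0.02 with H2-K1, -0.02 with H2-D1 and 0.02 with B2m, and its only correlations past the threshold were with H2-Q7 (rho 0.14, adjusted p 0.00966) and H2-Q4 (rho 0.13, adjusted p 0.0218). The rho with H2-Q4 was 0.26, -0.11 and 0.17 within generations 21, 22 and 23, so its direction did not hold within generation 22. H2-M3 was correlated with B2m (rho 0.24, r 0.25) and H2-T22 (rho 0.24, r 0.24), with adjusted p 4.5e-05 for rho in both. Its correlations with H2-K1 and H2-T23 were weaker (rho 0.13 and adjusted p 0.0218 for rho in both). H2-T22 is the member nearest to H2-M3 on the chromosome.

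**Figure D3:**
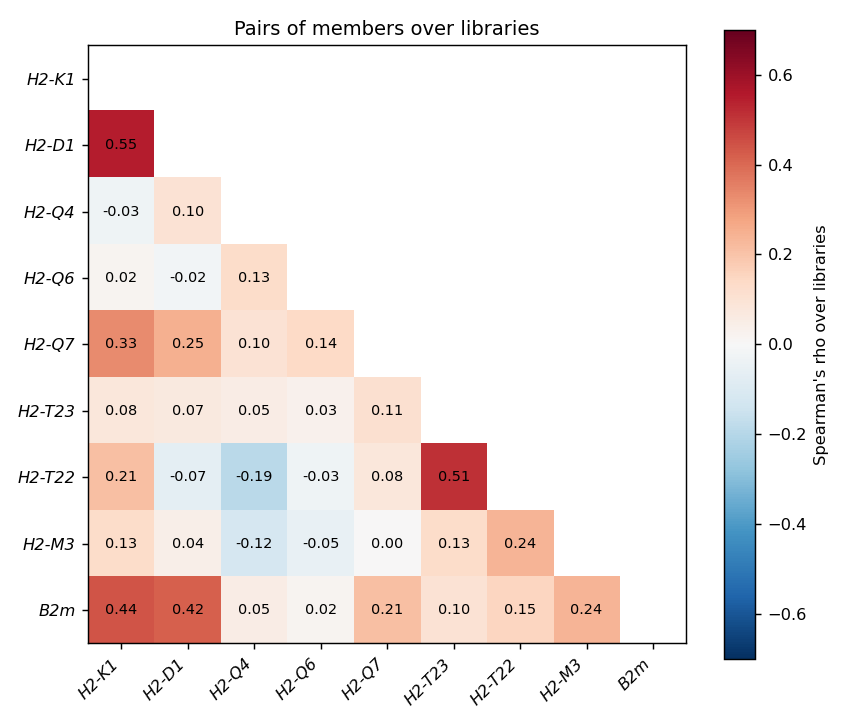
Spearman's rho of log2 CPM for the 36 pairs of members, ordered along chromosome 17 with B2m last; all 416 libraries enter, less 8 for pairs with H2-Q4. The highest values are 0.55 for H2-K1 with H2-D1 and 0.51 for H2-T22 with H2-T23.

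The members were then set against the mean log2 CPM of 17 lists of genes, among them the class I pathway, interferon-stimulated genes and markers of cell types. Of the relations between the 9 members and 17 lists 73 passed an adjusted permutation p under 0.05 (Spearman). B2m followed the antigen processing list, which holds proteasome, TAP and chaperone genes, with rho 0.55 and r 0.63, and the interferon-stimulated list with rho 0.55 and r 0.61. With the list of class I transcription factors, which holds Nlrc5 and its partners, it had rho 0.5 and r 0.54. Each had permutation p 1e-05 (adjusted 5.67e-05 for rho and 4.64e-05 for r), and without the 2 farthest libraries r was 0.62, 0.59 and 0.52.

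H2-D1 and H2-K1 had rho 0.5 and 0.44 with the antigen processing list, 0.39 and 0.4 with class I transcription, and 0.37 and 0.32 with the interferon-stimulated list. The r values were 0.48 and 0.5, 0.38 and 0.44, and 0.35 and 0.39, each with adjusted p 5.67e-05 for rho and 4.64e-05 for r. The TAP gene Tap1 lies on chromosome 17, as H2-D1 and H2-K1 do, 73 tested genes from H2-Q7, whereas B2m lies on chromosome 2. The part of genes on the same chromosome in these correlations was not tested. H2-Q7 had rho 0.32 with the interferon-stimulated list, and 0.44, 0.08 and 0.35 within generations 21, 22 and 23. H2-T22, H2-T23, H2-Q4 and H2-Q6 had rho between -0.05 and 0.13 with the 3 lists of antigen processing, class I transcription and interferon-stimulated genes. Of these relations 4 passed the threshold, each with rho of 0.12 or 0.13.

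Cell type lists had rho between -0.27 and 0.26 with the members. B2m had rho 0.21 (r 0.21, adjusted p 0.000153 for rho) with the microglia list and 0.23 (r 0.25, 5.67e-05) with the endothelial list, and H2-K1 had 0.1 (r 0.12, 0.0913) and 0.18 (r 0.17, 0.00122). For blood leukocytes rho was 0.07 with B2m and 0.04 with H2-K1, neither past the threshold (adjusted p 0.24 and 0.532). With vascular fibroblasts and meninges B2m had rho 0.25 and r 0.4, and H2-K1 rho 0.24 and r 0.32 (adjusted p 5.67e-05 for rho in both); r was 0.35 and 0.28 without the 2 farthest libraries. With the choroid plexus list B2m had rho 0.19 and r 0.38 (adjusted p 0.000325 for rho).

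H2-M3 and H2-D1 were among the members correlated with neuronal lists. H2-M3 had rho -0.27 with markers of spiny projection neurons and 0.26 with markers of cortical excitatory neurons (r -0.37 and 0.27, adjusted p 5.67e-05 for rho in both). H2-D1 had rho -0.22 and 0.19 with the same lists (r -0.16 and 0.16, adjusted p 5.67e-05 and 0.00036 for rho). B2m had the same signs (rho -0.2 and 0.14, r -0.17 and 0.15, adjusted p 0.000239 and 0.0121 for rho). H2-Q7 (rho 0.14 and -0.21, r 0.01 and -0.19, adjusted p 0.0126 and 0.000109 for rho) and H2-Q6 (rho 0.13 and -0.11, r 0.13 and -0.12, adjusted p 0.026 and 0.0457 for rho) had the opposite signs. The H2-Q7 correlation with the cortical list was -0.04, -0.07 and -0.22 within generations 21, 22 and 23. The summed level of the cortical list, of which 10 of 10 genes were tested and none was at 0 in every library, ran from 70.5 to 1174 CPM over libraries. The part of such cells in the members' values was not tested by these correlations.

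**Figure D4:**
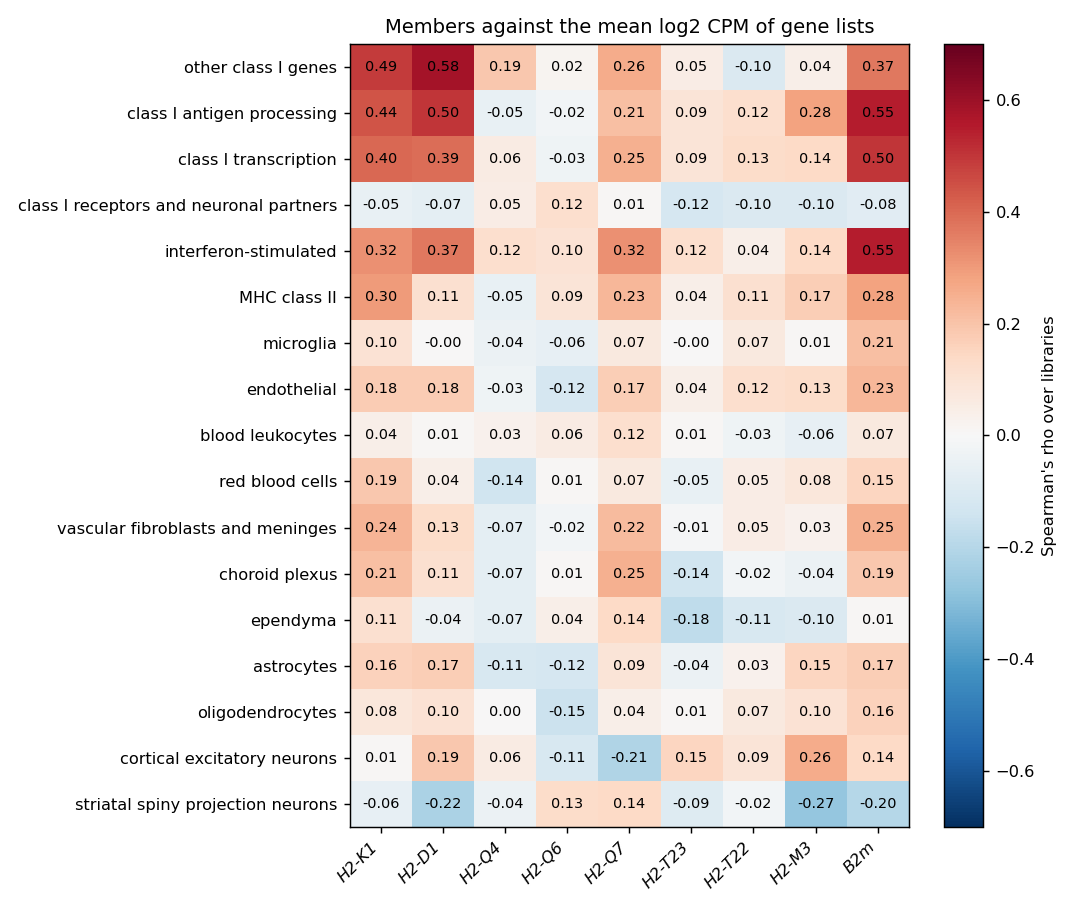
Spearman's rho of each member with the mean log2 CPM of each of 17 gene lists, over 416 libraries, less 8 for H2-Q4. B2m, H2-D1 and H2-K1 have the highest values, up to 0.58, in the rows of other class I genes, antigen processing, class I transcription and interferon-stimulated genes, while the cell type rows lie between -0.27 and 0.26.

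Genes with the pattern most like each member were named by the highest rho among tested genes outside the member list. H2-K1 was most like Rgl2 (rho 0.56), an exchange factor for Ral GTPases that lies 7 tested genes away, its neighbouring pseudogene H2-K2 (0.56) and Cd320 (0.5), the transcobalamin receptor, 16 tested genes away. H2-D1 was most like its neighbour H2-Q2 (0.49), Vps52 (0.46), a subunit of a vesicle tethering complex, and the cytochrome P450 gene Cyp4f16 (0.44), all on chromosome 17. H2-K2 and H2-Q2 had medians of only 0.0825 and 0.211 CPM, so their values carry more counting error. Whether reads of H2-K1 or H2-D1 were counted for them was not tested. H2-T22 was most like H2-T24 (0.41), the adhesion receptor gene Adgrf2 (0.36) and Abcf1 (0.33), 2, 35 and 6 tested genes away.

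Of the 20 genes most like it, 14 were on chromosome 17 for H2-K1, 12 for H2-D1 and 10 for H2-T22, while 4.29% of all genes tested lie there. The other members of chromosome 17 had fewer: 3 for H2-Q7, 1 each for H2-Q4, H2-T23 and H2-M3, and 0 for H2-Q6. Of the 20 genes most like B2m, 2 were on its own chromosome 2, which holds 8.09% of the genes tested.

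B2m was most like Nlrc5 (0.42), the transactivator of class I genes, Parp14 (0.42) and Igtp (0.4), both induced by interferon. H2-Q7 was most like A430033K04Rik on chromosome 5 (0.45), Tap1 (0.34), a subunit of the peptide transporter, and Erf (0.34), a transcriptional repressor. H2-T23 was most like the protease gene Prss23 (0.28), its neighbour H2-T24 (0.26) and Atf6 (0.23), a sensor of stress in the endoplasmic reticulum. H2-Q4, without its 8 lowest libraries, was most like the pseudogenes Gm13722 (0.56) and Gm8956 (0.53) and the thymidylate synthase gene Tyms (0.53). Within generations 21, 22 and 23 the rho of H2-Q4 with Tyms was 0.33, 0.36 and 0.13. H2-M3 was most like the phosphatase gene Ppp5c (0.38), Lhfp (0.37) and Gnas (0.37), which encodes a stimulatory G protein subunit, and H2-Q6 was most like the gene models Gm44070 (0.37), Gm43558 (0.32) and Gm38046 (0.32).

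Libraries labelled female and male were compared first among the labelled groups. The medians were 5.19 CPM in females and 4.94 CPM in males for H2-K1, 8.07 and 7.85 for H2-D1, 13.4 and 13.6 for H2-Q4, 7.41 and 7.1 for H2-T22, and 19.3 and 18.8 for B2m. The ranges of the sexes overlapped almost whole, at 1.28 to 25.7 CPM in females and 1.44 to 22.6 CPM in males for H2-D1. None of the 9 members was called by edgeR's quasi-likelihood test at a Benjamini-Hochberg adjusted p under 0.05, where 2.86% of all genes tested were, and 0 had an unadjusted p under 0.05. DESeq2 and limma voom also called 0.

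The log2 differences, female minus male, lay between -0.03 (H2-Q4) and 0.1 (H2-D1), with a median of 0.021 against -0.002 over all genes. The 95% interval of the ratio was 0.989 to 1.16 for H2-D1, 0.926 to 1.11 for H2-K1 and 0.986 to 1.08 for B2m, so larger differences than these lie outside the intervals. The test of whether the sexes differed by a different amount in the 3 generations called none of the members (0.322% of all genes tested), with adjusted p between 0.669 (H2-Q7) and 0.982 (H2-Q6) and 0 members at an unadjusted p under 0.05. Limma voom called 0 of all genes in this test, so its 0 among the members carries no information.

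Several members differed between breeding generations, in different directions. Generation cannot be told apart from cohort or batch of handling, so these differences are not ascribed to breeding. H2-Q4 was higher and H2-K1 and H2-Q7 were lower in generations 22 and 23 than in generation 21. H2-Q4 ran from 6.73 to 38.6 CPM (median 11.6) in generation 21, from 2.47 to 46.2 CPM (median 14.5) in generation 22 and from 3.42 to 38.96 CPM (median 14.7) in generation 23. Its log2 difference was 0.29 ± 0.058 (SE) for generation 22 minus 21 and 0.29 ± 0.055 for generation 23 minus 21, with edgeR adjusted p 6.46e-06 and 8.8e-07. The ranges overlapped, and the lowest libraries of H2-Q4 were in the generations with the higher medians.

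H2-K1 ran from 1.76 to 17.8 CPM (median 5.7) in generation 21, from 1.05 to 17.9 CPM (median 4.29) in generation 22 and from 1.0 to 17.7 CPM (median 4.82) in generation 23. Its log2 difference was -0.39 ± 0.083 (SE) for generation 22 minus 21 and -0.2 ± 0.077 for generation 23 minus 21, with edgeR adjusted p 1.8e-05 and 0.0185. H2-K1 was thus lower in both later generations, with ranges that overlapped nearly whole. Its call for generation 23 against 21 was lost with total count and mitochondrial share as covariates (log2 -0.18, edgeR adjusted p 0.0515), in females alone (log2 -0.18, edgeR adjusted p 0.175) and in males alone (log2 -0.22, edgeR adjusted p 0.0767). H2-Q7 had medians of 1.5, 1.3 and 1.08 CPM in generations 21, 22 and 23, between a lowest of 0.368 and a highest of 5.08 CPM. Its log2 difference was -0.23 ± 0.069 (SE) for generation 22 minus 21 and -0.33 ± 0.067 for generation 23 minus 21, with edgeR adjusted p 0.00281 and 3.15e-06. In females alone the differences of H2-Q7 were -0.3 and -0.49 (edgeR adjusted p 0.00516 and 8.63e-07), and in males alone they were -0.16 and -0.18 and were not called (edgeR adjusted p 0.244 and 0.126). Summed with H2-Q6, with which it shares transcript windows, H2-Q7 was not called in generation 22 against 21 (log2 -0.07, edgeR adjusted p 0.0738).

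H2-D1 and B2m were lowest in generation 22. H2-D1 ran from 1.63 to 25.7 CPM (median 7.87) in generation 21, from 1.28 to 17.3 CPM (median 7.18) in generation 22 and from 2.58 to 19.1 CPM (median 8.8) in generation 23. Its log2 difference was -0.21 ± 0.073 (SE) for generation 22 minus 21 and 0.24 ± 0.073 for generation 23 minus 22, with edgeR adjusted p 0.0119 for each. B2m ran from 11.5 to 45.9 CPM (median 19.7) in generation 21, from 10.2 to 43.9 CPM (median 17.6) in generation 22 and from 10.04 to 36.1 CPM (median 19.3) in generation 23. It had log2 differences of -0.12 ± 0.041 (SE) for 22 minus 21 and 0.12 ± 0.041 for 23 minus 22, with edgeR adjusted p 0.00954 and 0.0223. In females alone neither gene was called in generation 22 against 21 or in 23 against 22. There H2-D1 had log2 differences of -0.11 and 0.1 (edgeR adjusted p 0.425 and 0.647) and B2m of -0.06 and 0.08 (edgeR adjusted p 0.472 and 0.469). In males alone H2-D1 had -0.32 and 0.38 (edgeR adjusted p 0.0132 and 0.0179) and B2m -0.19 and 0.17 (edgeR adjusted p 0.00891 and 0.0665).

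In all, 6 of the 9 members differed between generations 22 and 21 (1 higher, 5 lower), where 46.6% of all genes tested were called, 22.1% higher and 24.5% lower. Between generations 23 and 21 it was 4 members (2 higher, 2 lower), where 58.3% of all genes were called, 25.8% higher and 32.6% lower, and between 23 and 22 it was 2 members, both higher, where 18.2% of all genes were called, 8.53% higher and 9.63% lower. These counts come from comparisons in which a large share of all genes was called, and the generations share libraries between comparisons. The median absolute log2 difference of the members was 0.164, 0.09 and 0.102 in these 3 comparisons, against 0.078, 0.094 and 0.045 over all genes. H2-T23 was higher in generation 23 than in 21 (log2 0.1 ± 0.04, edgeR adjusted p 0.0185), and H2-M3 was lower in generation 22 than in 21 (log2 -0.16 ± 0.062, edgeR adjusted p 0.0219). In the edgeR test H2-T22 and H2-Q6 were not called between any 2 generations, with log2 differences of -0.15 to 0.06 for H2-T22 and 0.0 to 0.02 for H2-Q6. For H2-T22 in generation 22 against 21 the edgeR adjusted p was 0.0716, and the gene was called with limma voom (log2 -0.17, adjusted p 0.0406), without the libraries that went against their labelled sex (edgeR log2 -0.18, adjusted p 0.0416) and in males alone (edgeR log2 -0.27, adjusted p 0.0349).

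**Figure D5:**
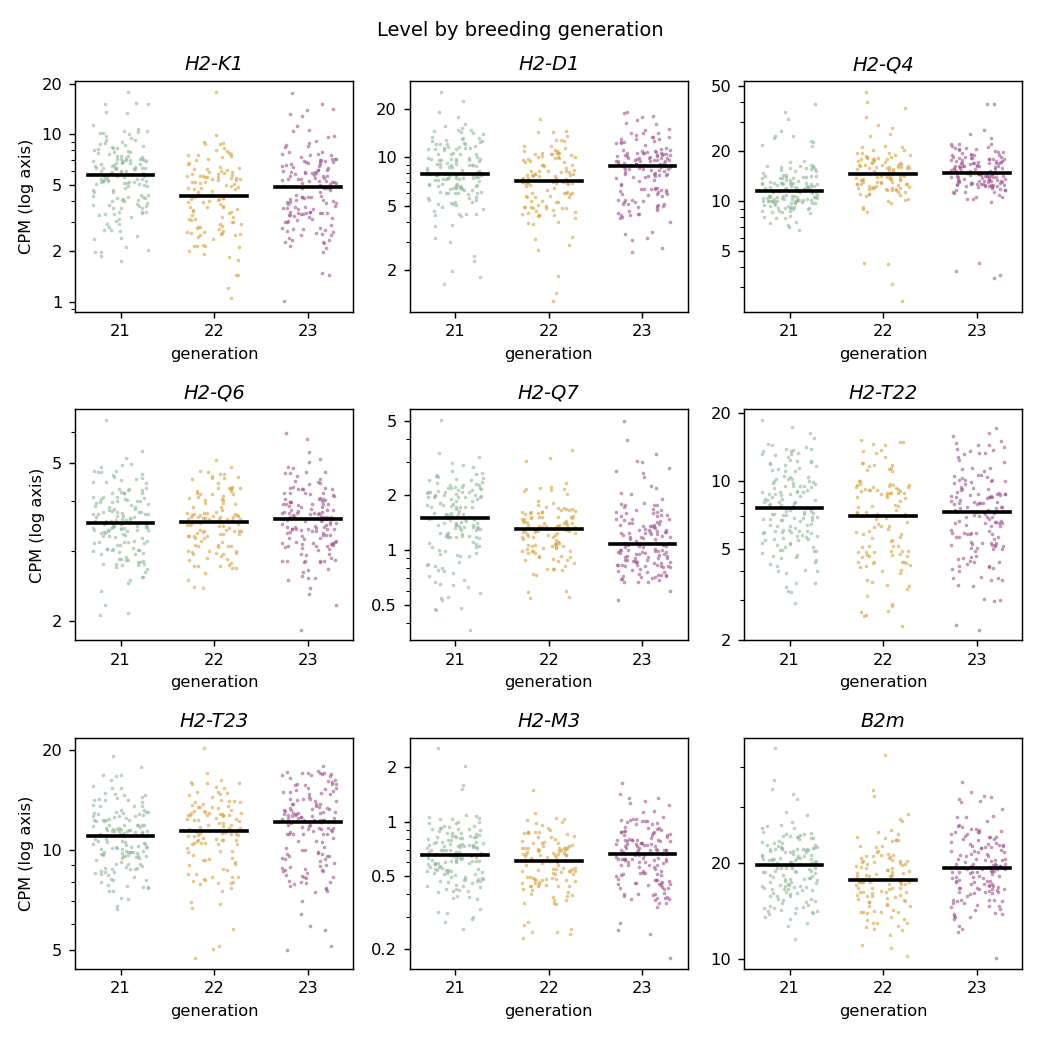
Level of each member by breeding generation, in CPM on a log axis; each point is a library and the line is the median. The line of H2-Q4 is higher in generations 22 and 23 than in 21, that of H2-Q7 lower, and the clouds overlap in every panel.

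Markers of other cells moved with generation as well, as did a large share of all genes. The summed cortical excitatory list had medians of 104.3, 119.7 and 255.5 CPM in generations 21, 22 and 23, over 71.7 to 932.1, 70.5 to 1174 and 72.2 to 1012 CPM. Of its 10 genes, 9 were higher in generation 23 than in 21, where 25.8% of all genes were higher and 32.6% lower. The striatal list had medians of 8119, 7991 and 7455 CPM, over 486.7 to 9741, 1609 to 9306 and 4168 to 9234 CPM. In generation 23 against 21, 6 of its 12 genes were lower and 1 higher, where 58.3% of all genes were called. Of 18 microglia genes 2 were higher and 11 lower in generation 23 than in 21, with summed medians of 368.1, 356.2 and 350.4 CPM in generations 21, 22 and 23, over 291.7 to 503.9 CPM in generation 21, 280.1 to 450.7 CPM in generation 22 and up to 471.4 CPM in generation 23. None of the markers in these 3 lists was at 0 in every library.

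Most markers of vascular fibroblasts, ependyma and red blood cells were lower in generation 23 than in 21, where 25.8% of all genes were higher and 32.6% lower. Of 10 markers of vascular fibroblasts and meninges 0 were higher and 7 lower (median log2 difference -0.202), with summed levels of 79.1 to 865.7, 76.5 to 597.5 and 67.8 to 481.3 CPM in generations 21, 22 and 23. Of 8 ependyma markers 0 were higher and 7 lower (median log2 -0.428), with sums of 5.13 to 133.3, 8.32 to 62.6 and 9.74 to 52.3 CPM. Of 6 red blood cell markers tested 0 were higher and 5 lower (median log2 -0.375), with sums of 70.6 to 495.9, 50.6 to 242.7 and 66.5 to 291.4 CPM. Of 9 choroid plexus markers 0 were higher and 2 lower (median log2 -0.505), with sums of 8.9 to 15890, 11.5 to 7059 and 11.3 to 5863 CPM. H2-K1 and H2-Q7 were lower in the same comparison, and over libraries both were correlated with the vascular list (rho 0.24 and 0.22) and the choroid plexus list (rho 0.21 and 0.25). On residuals after the group means these rho were 0.21 and 0.15, and 0.16 and 0.17. Within generations 21, 22 and 23 H2-Q7 had rho 0.12, 0.22 and 0.17 with the vascular list. With the choroid plexus list it had 0.02, 0.25 and 0.24. No fit had these 4 lists as covariates, so their part in the members' generation differences was not tested.

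With microglia, endothelial and cortical scores as covariates, H2-Q4, H2-K1 and H2-Q7 were called as before in generation 22 against 21 and in 23 against 21. The calls of H2-D1 (log2 0.18, adjusted p 0.119) and B2m (log2 0.09, adjusted p 0.164) in generation 23 against 22 and of H2-T23 in 23 against 21 (log2 0.07, adjusted p 0.155) were lost in that edgeR fit, and H2-M3 was called lower in 23 than in 21 (log2 -0.18, adjusted p 0.00697). Over all alternatives the adjusted p ran from 0.00804 to 0.647 for H2-D1, from 0.00236 to 0.469 for B2m and from 0.0101 to 0.406 for H2-T23. Leaving out the libraries whose Xist went against the label, H2-D1 in generation 23 against 22 was not called (log2 0.2, adjusted p 0.0541). With the 29 libraries of low total or correlation left out, 4 members were called between generations 22 and 21, and H2-D1 (log2 -0.1, adjusted p 0.264) and H2-M3 (log2 -0.07, adjusted p 0.366) were not. Over the alternatives their adjusted p ran from 0.00197 to 0.425 and from 0.000873 to 0.515.

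Genes that act with the class I molecules changed in both directions between generations. Of the 17 antigen processing genes, 4 were higher and 9 lower in generation 22 than in 21 (median log2 difference -0.058 against -0.008 over all genes), where 22.1% of all genes were higher and 24.5% lower. In generation 23 against 21 there were 6 higher and 7 lower (median 0.013 against -0.017), where 25.8% of all genes were higher and 32.6% lower. In 23 against 22 there were 5 higher and 0 lower (median 0.025 against -0.007), where 8.53% of all genes were higher and 9.63% lower. The chaperone gene Canx, which holds new heavy chains, was higher in generation 22 (log2 0.09) and in generation 23 (0.11) than in 21. The proteasome activator genes Psme1 and Psme2 were lower in generation 23 than in 21 (log2 -0.21 and -0.12). Psmb10, a subunit of the immunoproteasome, was higher in generation 23 than in 22 (log2 0.22 ± 0.054, edgeR adjusted p 0.00127), as was the chaperone gene Hspa5 (log2 0.17 ± 0.044, adjusted p 0.00209).

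Of 19 class I transcription genes, 2 were higher and 5 lower in generation 22 than in 21, and 5 and 5 in generation 23 against 21. These counts of 7 and 10 of 19 stand beside 46.6% and 58.3% of all genes called, so they do not set the list apart. Creb1, which binds the X2 box, was higher in generation 23 than in 21 (log2 0.16), and Rela, a kappa B binding subunit, was lower (log2 -0.14). Of 26 interferon-stimulated genes 3 were higher and 0 lower in generation 22 than in 21, and 2 and 5 in generation 23 against 21, where Ifih1 was higher (log2 0.26) and Isg15 lower (log2 -0.22). The 3 and 7 of 26 called stand below the same 46.6% and 58.3%. Of 22 other class I and class I-like genes 13 were tested. In generation 22 against 21, 0 of them were higher and 3 lower, where 22.1% of all genes were higher and 24.5% lower, so this count does not set the list apart. The 3 were Fcgrt (log2 -0.14), H2-K2 (log2 -0.43) and Procr (log2 -0.21). H2-K2, the neighbour of H2-K1, had a median of 0.0825 CPM. Of 9 MHC class II genes tested 0 were higher and 3 lower in generation 23 than in 21, where 25.8% of all genes were higher and 32.6% lower, among them the peptide-loading genes H2-DMa (log2 -0.29) and H2-DMb1 (log2 -0.41). Of 6 class I receptor and partner genes tested 2 were higher and 2 lower in the same comparison, with the inhibitory receptor gene Pirb higher (log2 0.27). Of the antigen processing genes 3 were higher in libraries labelled female than in males and 0 lower, where 1.55% of all genes were higher and 1.3% lower. They were Calr (log2 0.07), Pdia3 (log2 0.07) and Hspa5 (log2 0.11), all chaperones of the endoplasmic reticulum.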

How the data were processed

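The deposited table holds estimated counts per gene as the authors made them: 23.8% of values were not whole, and none was normalized as far as the values show. Per the labels' protocols, total RNA was depleted of ribosomal RNA with a stranded kit. The aligner, counter, genome build and annotation are not given in the sources used here. Columns were joined to libraries by the number in the title, with 0 left over, and 0 libraries were identical to another. Gene names came from GENCODE M21 (98.9% of IDs matched).

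The members, gene lists and tests were chosen with earlier results of these data known. Counts were rounded (0.005% of the total moved), filtered with edgeR's filterByExpr (minimum count 10), scaled with TMM, and modelled on sex and generation with the robust quasi-likelihood test of edgeR 4.0.16 (R 4.3.3). A call is a Benjamini-Hochberg adjusted p below 0.05 over all 22968 genes. All tests are two-sided. Log2 CPM carry a prior count of 2. Correlations used 100000 permutations, or 10000 in alternatives, adjusted over the 36 pairs or over all members by 17 lists. Intervals are 1.96 SE either side. Named are the 9 members, the 3 genes most like each, and up to 4 genes of a list with the smallest adjusted p, not all of them in the text. Libraries of low total had under 0.5 of the median total, and those of low correlation lay over 4 scaled median absolute deviations below the median. Fits were tested on simulated counts. Alternatives were DESeq2 1.42.0, limma 3.58.1 voom, RLE factors, other filters, covariates, single sexes or generations, summed genes, and sets of libraries left out.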

Additional observations from a re-analysis of the deposited data

How the results depend on the processing

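No paired analysis was possible because replicate numbers were given in accession order and pair nothing. Members called between the sexes and by the interaction were 0 under every alternative run (12 and 6 of them). DESeq2, the covariate fits and the single-group fits were not run for the interaction. Members called ranged from 4 to 7 (main 6) for generation 22 against 21, from 1 to 4 (main 4) for 23 against 21 and from 0 to 3 (main 2) for 23 against 22. The count moved by over 1.5 times to 1 (23 against 21) and 1 (23 against 22) in males alone, and to 0 (23 against 22) in females alone and with microglia, endothelial and cortical scores as covariates. H2-Q4 and H2-K1 in generation 22 against 21, and H2-Q4 in 23 against 21, were called under all 11 alternatives that kept the genes apart. The sum of H2-K1, H2-D1, H2-Q4, H2-Q6 and H2-Q7 was not called in 22 against 21 (log2 -0.001, edgeR adjusted p 0.985). H2-K1 in 23 against 21 lost its call with total count and mitochondrial share as covariates and in either sex alone. H2-Q7 lost its call in males alone in both comparisons with 21, and in 22 against 21 also when summed with H2-Q6 (edgeR adjusted p 0.0738). H2-M3 was not tested at a mean CPM of at least 1. Correlated pairs numbered 9 and 10 in generations 21 and 22 alone (main 17), and relations with lists 29, 17 and 32 in generations 21, 22 and 23 alone (main 73), with fewer libraries in each. Over all genes, calls between the sexes (main 656) were 1094 without libraries against their label, 1351 without those of low total or correlation, and 62 and 52 in generations 21 and 22 alone, and 0.171 times the main count in generation 23 alone. They were 6328 (main 10706) for 22 against 21 in males, and 1632, 902 and 1013 (main 4171) for 23 against 22 with the cell scores, in females and in males. Interaction calls (main 74) were 0 with voom, 1.53 times as many without a filter, 30 at a mean CPM of at least 1, and 42 and 21 without each set of libraries. The depth limits H2-M3 and H2-Q7 most.

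Directions turned for log2 differences near 0, and for members summed with others. For the sexes (female minus male) they were -0.008 (B2m), -0.04 (H2-K1), 0.033 (H2-Q4), 0.136 (H2-Q7), -0.103 (H2-T22) and -0.007 (H2-T23) in generation 21 alone, -0.104 (H2-M3) in 22 alone, and -0.01 (H2-D1) and -0.00054 (H2-K1) in 23 alone. H2-Q7 was 0.021 with voom and 0.0007 with total count and mitochondrial share. H2-K1, H2-M3 and H2-T22 were -0.019, -0.006 and -0.013 with the cell scores, and H2-K1 was -0.00015 without libraries of low total or correlation. For generation 22 minus 21, H2-Q6 was -0.00011 with DESeq2, -0.002 at a mean CPM of at least 1, -0.003 and -0.005 without libraries against the label or of low total or correlation, and -0.013 in females, and H2-T23 was -0.005 in males. For 23 minus 21, B2m was -0.00054 at a mean CPM of at least 1, -0.001 without libraries against the label, -0.04 with the cell scores and -0.019 in males. H2-D1 was -0.065 with the cell scores and -0.01 in females, and H2-M3 was 0.065 without libraries of low total or correlation. For 23 minus 22, H2-Q4 was -0.007 in females and -0.007 with total count and mitochondrial share, where H2-Q6 was -0.002. H2-Q6 summed with H2-Q7 gave -0.07 (22 minus 21), -0.084 (23 minus 21) and -0.015 (23 minus 22). H2-K1, H2-D1, H2-Q4, H2-Q6 and H2-Q7 summed gave 0.01 (sexes), -0.001 (22 minus 21), 0.084 (23 minus 21) and 0.085 (23 minus 22), in turn against H2-Q4, H2-Q6 and H2-Q7, H2-Q4 and H2-Q6, H2-K1 and H2-Q7, and H2-Q7. The cause was not tested. The called members among these reversals are H2-Q4, H2-K1 and H2-Q7 in the sum, which adds genes that moved in opposite directions.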

Other observations

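Some genes varied opposite to the members; they were chosen after their values were seen and are given as values. On chromosome 17, H2-D1 had rho -0.38 with Aif1, a microglia gene 8 tested genes away (-0.53, -0.33 and -0.25 within generations 21, 22 and 23), and -0.41 with BC051142. H2-K1 had rho -0.39 with C4a, a complement component gene, and H2-T22 had -0.41 with the antisense transcript A930015D03Rik, 3 tested genes away, and -0.4 with Gpank1. Whether reads were counted by strand is not given in the sources used here, so the value of an antisense transcript is uncertain. On chromosome 2, B2m had rho -0.4 with Bloc1s6, 8 tested genes away, with -0.38, -0.38 and -0.44 within generations 21, 22 and 23. H2-M3 had rho -0.35 with Gad2, an enzyme of GABA synthesis, and -0.37 with Foxp2, a transcription factor of spiny projection neurons.

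H2-Q7 and A430033K04Rik, on different chromosomes, had rho 0.55 in generation 21, 0.15 in generation 22 and 0.31 in generation 23. The difference between these values was not tested.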
